A study of Mus musculus with 4 samples.

Results

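The genes described here encode subunits of the mitochondrial respiratory chain and of the ATP synthase in cells cultured from lymph nodes that drained tumours. They were chosen by name: every gene with a probe set of its own whose array symbol begins with Nduf, Uqcr or Atp5, is Sdha, Sdhb, Sdhc or Sdhd, or belongs to the families Cox4, Cox5, Cox6, Cox7 and Cox8. This gave 90 of 18193 genes, measured by 179 probe sets, and where a gene had several, the probe set of highest mean signal stands for it. The 90 comprise 36 complex I subunits and relatives, 8 complex I assembly factors (Ndufaf genes), 4 subunits of complex II, 8 of complex III, 17 of complex IV and 17 of the ATP synthase, or complex V.

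RNA came from 4 preparations, each on 1 Affymetrix array. In the metastatic group, 2 preparations came from axillary nodes of female SCID/NOD mice aged 6 to 8 weeks that carried subcutaneous tumours of human 293-VEGF-D cells, which overexpress the lymphatic growth factor VEGF-D. In the non-metastatic group, 2 preparations came from the same strain, sex and age with tumours of 293-Apex cells, which lack VEGF-D. Nodes were harvested once tumours measured 1600 to 2500 mm3, which took 3 to 4 weeks, and each preparation pooled nodes of 1 to 5 mice. The stromal cells of the digested nodes spent a short time in an endothelial growth medium before bead selection on podoplanin, a surface protein that lymphatic endothelium and fibroblastic reticular cells carry. Nodes draining metastatic tumours were used only if visibly enlarged. The sorting label gives removal of tumour cells and leukocytes ahead of culture for the metastatic preparations and none for the non-metastatic ones, while the growth protocol describes it without naming a group. VEGF-D, node enlargement and, by that label, depletion therefore cannot be told apart from the group.

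Values are log2 signals after quantile normalization, and a difference is metastatic minus non-metastatic on that scale. The endothelial label was only partly borne out by its defining markers. Prox1, the transcription factor that defines lymphatic endothelium, stayed at 3.74 to 4.17 on the 4 arrays and Pecam1, a junction protein of endothelium, at 4.76 to 5.36, both under the median of all probe sets (5.95), while the fibroblast receptor gene Pdgfra stood at 12.00 to 12.62 and Pdpn, the gene of podoplanin, at 10.35 to 10.89. Under that median by mean signal were 3 of 9 lymphatic and 6 of 11 blood endothelial markers, against 2 of 11 fibroblastic reticular markers. The endothelial genes Cdh5 and Vwf had means of 5.87 and 4.76. The collagen genes Col1a1 and Col1a2 had 13.74 and 14.22, and the smooth muscle actin gene Acta2 had 14.20. Pdpn was the marker of selection and is shared with fibroblastic reticular cells, so its signal does not single out endothelium. In such mixed preparations, fewer cells of a type and less RNA per cell cannot be told apart. The number of arrays limits the precision, and with 2 arrays a group the smallest two-sided p of an exact permutation test is 0.33.

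The respiratory chain passes electrons from NADH through complex I, or from succinate through complex II, to ubiquinone, then through complex III and cytochrome c to oxygen at complex IV. The proton gradient built on the way drives ATP synthesis by complex V. Most subunits have 1 nuclear gene that is active in nearly every cell, but several complex IV subunits, and the complex I relative Ndufa4, also have isoforms restricted to muscle, testis or cells short of oxygen.

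The widely expressed subunits differed little between the groups, and the large differences lay in 3 isoform genes. Cox7a1, the heart and skeletal muscle isoform of a complex IV subunit, was 1.60 higher in the metastatic group, Cox6b2, the testis isoform of another, differed by -1.36, and Ndufa4l2, a paralog of Ndufa4 known as a target of hypoxia-inducible factor, was 1.40 higher through a single array. Of the other 82 members and the 5 remaining restricted isoforms, none differed by more than 0.38 in either direction. After Benjamini-Hochberg adjustment over all 45037 probe sets, limma called 0 of the 90 members (smallest adjusted p = 0.487), as it called 0% of all probe sets. At an unadjusted p under 0.05 there were 2 members, Cox7a1 and Cox6b2, 1 in each direction, where 6.7% of all genes (2.63% higher, 4.07% lower) and 6.06% of all probe sets reached that level, and 3 members with a trend and robust moderation. A difference of at least 1 log2 unit was seen for 3 members and for 0.945% of all genes.

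Over the 90 members, 51 were higher and 39 lower in the metastatic group, with a median difference of 0.02, while 49.9% of all genes were higher, with a median of 0.00. This direction is not stable: with the values as deposited 44 members were higher and the median was 0.00 (-0.003), and leaving out single arrays gave between 35 members higher (without metastatic replicate 1) and 67 (without metastatic replicate 2). The median size of a member's difference, regardless of sign, was 0.08, against 0.10 over all genes and 0.11 over genes above the median signal. The groups did not overlap for 19 members that were higher and 10 that were lower, where 17.2% of all genes were higher without overlap and 17.3% were lower. For the 82 members outside the 8 tissue-restricted or oxygen-linked isoforms, the 95% interval of the difference from limma lay within 1 log2 unit of 0 in all 82 cases, and within 0.5 in 74. A 2-fold difference in signal is thus outside the interval of the probe set that stands for each of these 82 genes. Of these probe sets, 2 lay under the median signal, those of Ndufb4 and Cox7c, and their intervals say little on those genes.

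**Figure D1:**
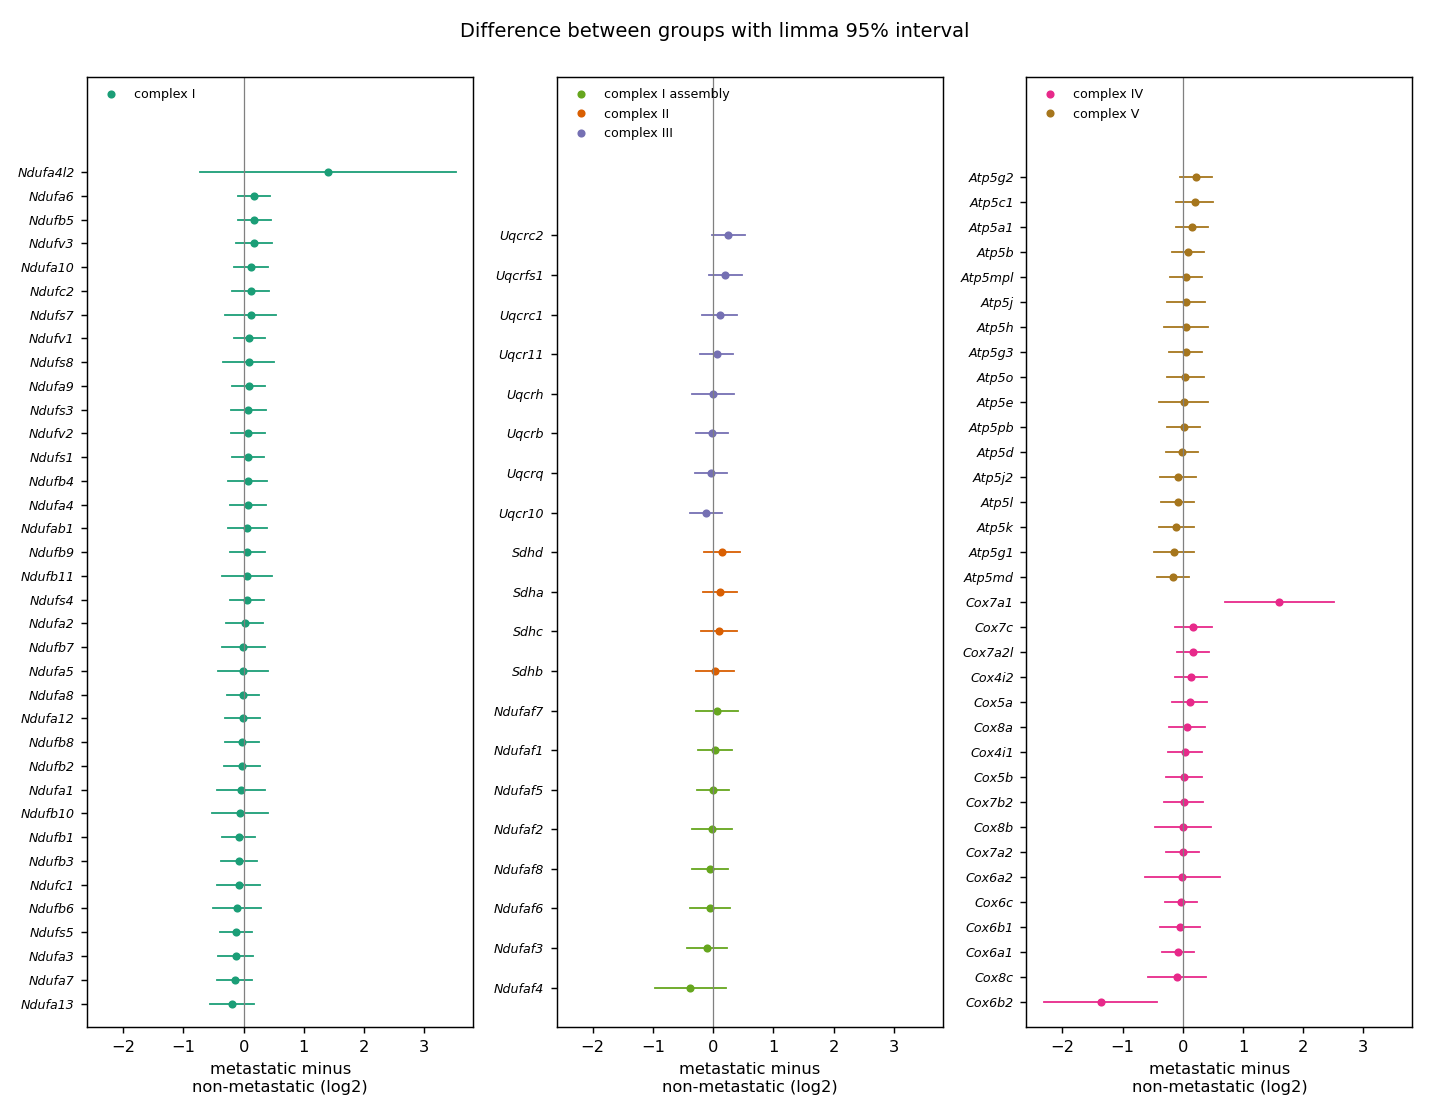
Difference between the metastatic and non-metastatic groups (log2, x axis) for each of the 90 genes, with its limma 95% interval as a horizontal line, coloured by complex and ordered by size within each. Nearly all genes lie close to 0, and Cox7a1 (1.60), Ndufa4l2 (1.40) and Cox6b2 (-1.36) stand apart.

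Cox7a1 showed the largest difference of the 90. Its log2 signal was 6.93 and 7.97 on the metastatic arrays and 6.12 and 5.56 on the non-metastatic arrays. Both metastatic arrays were higher, but the replicates of each group also lay far apart. The means were 7.45 ± 0.74 and 5.84 ± 0.40 (SD, n = 2 each), a difference of 1.60 (SE 0.37, 95% interval 0.70 to 2.51), or 3.04-fold, and it did not pass (limma adjusted p = 0.487). The non-metastatic mean lay under the median of all probe sets (5.95), so the fold is set against a dim group. Without 1 array in turn the difference ran from 1.08 to 2.12. The widely expressed isoform Cox7a2, which occupies the same place in complex IV, had 13.34 and 13.31 against 13.37 and 13.30, a difference of -0.01 (SE 0.11), or 0.01 over the mean of its 2 probe sets. A related gene, Cox7a2l, encodes a protein that joins complexes III and IV into supercomplexes. It had 12.34 and 12.30 against 12.12 and 12.19 (difference 0.17, SE 0.11), and its other 2 probe sets stood at 0.21 and 0.17.

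Cox6b2 differed the other way. Its signal was 8.20 and 7.52 on the metastatic arrays and 9.74 and 8.71 on the non-metastatic arrays. The groups did not overlap, and the non-metastatic replicates were a whole log2 unit apart. The means were 7.86 ± 0.49 and 9.22 ± 0.72 (SD, n = 2 each), a difference of -1.36 (SE 0.38, 95% interval -2.31 to -0.42), or 2.57-fold lower, which did not pass (limma adjusted p = 0.624). The difference was -0.85 when non-metastatic replicate 1 was left out and -1.88 when the other non-metastatic array was. Its partner Cox6b1, the isoform of most tissues, which sits on the side of complex IV where cytochrome c docks, had 13.63 and 13.38 against 13.60 and 13.50 (difference -0.05, SE 0.13).

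Ndufa4l2 was high on 1 array alone. It had 7.18 and 10.05 on the metastatic arrays and 7.20 and 7.23 on the non-metastatic arrays. Metastatic replicate 2 thus stood apart, and the other 3 arrays lay within 0.05 of each other. The difference of 1.40 (SE 0.86, 95% interval -0.72 to 3.52) did not pass (limma adjusted p = 0.93). It was -0.03 without metastatic replicate 2. Without metastatic replicate 1 it was 2.84 and passed (limma adjusted p = 0.0292), in a fit that assumes the lone metastatic array varies like the other group. The canonical Ndufa4, which was named as a complex I subunit and is now regarded as part of complex IV, had 12.60 and 12.41 against 12.41 and 12.47 (difference 0.07, SE 0.12).

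**Figure D2:**
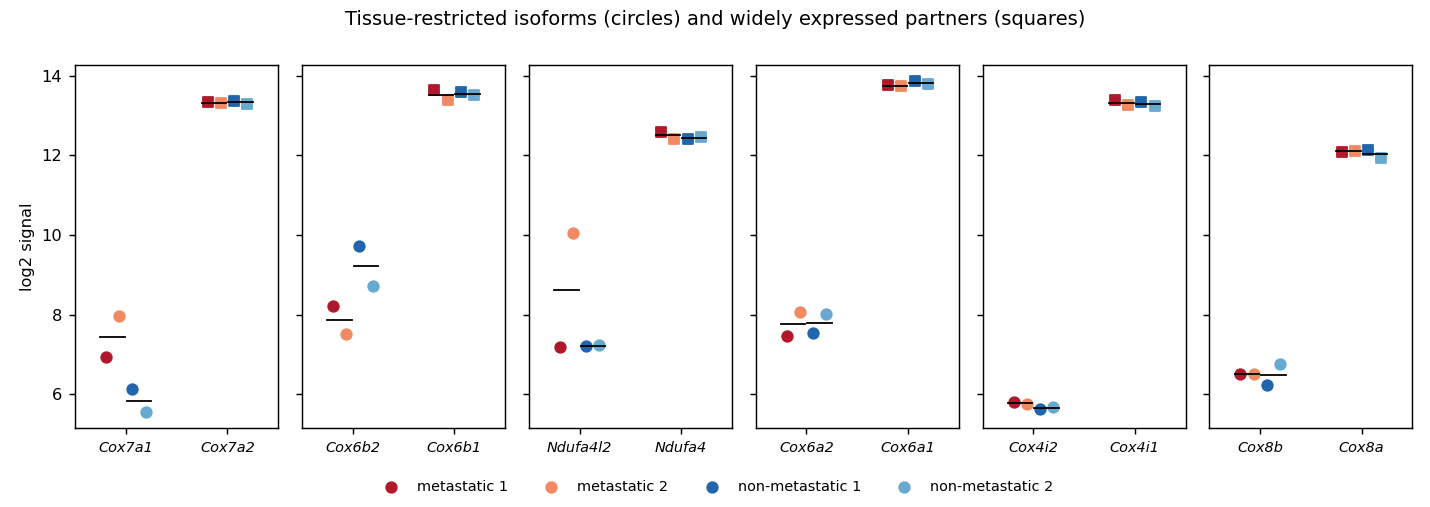
Log2 signal (y axis) of 6 tissue-restricted or oxygen-linked isoforms (circles) and their widely expressed partners (squares), 1 point per array with a line at each group mean. Cox7a1 is higher on both metastatic arrays, Cox6b2 lower on both, and Ndufa4l2 is high only on metastatic replicate 2 (10.05), while the partners vary little. Signals of different probe sets are not comparable as levels.

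Metastatic replicate 2 also had the highest signal for all 26 measured genes of a list of hypoxia and glycolysis genes. Of all 18193 genes, 5279 were highest on that array. The list was chosen with earlier results of these data known, so it is no independent check of this pattern. The median deviation of the 26 genes from their own mean over the arrays was 0.79 on metastatic replicate 2 and -0.27, -0.27 and -0.28 on the others. Bnip3, a mitophagy receptor on mitochondria, had 9.91 and 12.35 on the metastatic arrays and 9.29 and 9.45 on the non-metastatic ones. Pdk1, a kinase that keeps pyruvate out of the citric acid cycle, had 7.12 and 8.97 against 7.48 and 7.43, and Egln3, an oxygen-sensing hydroxylase, had 6.03 and 9.26 against 6.52 and 7.35 (these 3 were chosen after their values were seen). The members of the list with the smallest p were Aldoa, a glycolytic aldolase, with a difference of 0.73 (SE 0.21), the phosphofructokinase gene Pfkp with 0.45 (SE 0.13) and the growth factor gene Vegfa with 0.79 (SE 0.28), and none passed. Of the 26 genes 25 were higher in the metastatic group, with a median of 0.59, and without metastatic replicate 2 this was 13 with a median of 0.00. Cox4i2, the other member known to respond to low oxygen, did not share the pattern: it had 5.80 and 5.74 against 5.62 and 5.67, a difference of 0.13 (SE 0.11), and was dim (mean 5.71). The widely expressed Cox4i1 had 13.39 and 13.25 against 13.33 and 13.24, and the difference was 0.04 (SE 0.12), or 0.00 (-0.003) with the values as deposited. Lonp1, a mitochondrial protease known to degrade the Cox4i1 protein in low oxygen, had 9.57 and 10.34 against 9.30 and 9.39 (chosen after its values were seen). The part of oxygen supply in these values was not tested.

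The remaining restricted isoforms did not differ between the groups by more than 0.13. Cox6a2, an isoform of heart and skeletal muscle, had 7.48 and 8.08 on the metastatic arrays and 7.54 and 8.02 on the non-metastatic arrays. It was therefore higher on the replicate 2 array in each group, and the difference between groups was -0.01 (SE 0.25), or 0.01 (0.015) with centred arrays. Its other, dimmer probe set had the same order within groups, with 4.63 and 5.01 against 4.82 and 5.06. Cox8b, a muscle isoform as well, had 6.50 and 6.50 against 6.23 and 6.75 (difference 0.01, SE 0.19), and its sign turned with the values as deposited (-0.01). Cox8c, an isoform of testis, had 8.02 and 8.56 against 8.41 and 8.36, a difference of -0.10 (SE 0.19) that was 0.18 without metastatic replicate 1. Cox7b2, another testis isoform, was dim, at 4.07 and 4.16 against 4.22 and 3.99.

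Markers of striated muscle had the same order of arrays within groups. Of 15 such genes 14 were higher on metastatic replicate 2 than on replicate 1, and 14 were higher on non-metastatic replicate 2 than on replicate 1. Their mean log2 signal was 6.10 and 6.94 on the metastatic arrays and 5.58 and 7.59 on the non-metastatic arrays. Acta1, the skeletal muscle actin, had 8.42 and 11.19 against 8.07 and 11.13, and Ckm, the muscle creatine kinase, had 6.70 and 7.38 against 6.26 and 7.37. Myh4, a myosin heavy chain of fast fibres, stayed at 4.03 to 4.25, and Mylpf, a myosin light chain of those fibres, had 7.57 and 8.80 against 5.95 and 9.25. Of the 15 genes, 11 were highest on non-metastatic replicate 2, and 4 had a mean under the median signal. Cox7a1 had the order of these markers in the metastatic group and the reverse in the non-metastatic group, where it was lowest on replicate 2 (5.56). On that array Mb, the muscle oxygen carrier myoglobin, had 8.80, against 5.80 to 7.09 on the others. Mylpf and Mb were chosen after their values were seen. In brown fat, where Cox7a1 and Cox8b are also known to be active, the uncoupling protein gene Ucp1 stayed at 5.15 to 5.40 and Cidea, a lipid droplet protein, at 4.84 to 5.04, both under the median signal. Elovl3, a fatty acid elongase of that tissue, stayed at 5.49 to 5.92, and Prdm16, a regulator of brown fat identity, at 5.61 to 5.71. Smooth muscle and pericyte markers were lower for 11 of 14 genes in the metastatic group, with a median of -0.46. The list was not uniform. The 3 genes that were not lower, Rgs5 (0.03), Kcnj8 (0.02) and Abcc9 (0.07), are pericyte markers, and the receptor gene Pdgfrb stood at -0.02. Other pericyte markers were lower, with Notch3 and Cspg4 at -0.39 each, and the contractile gene Actg2 stood at -1.86. Of the 14 genes, 8 were lower at an unadjusted limma p under 0.05, where 4.07% of all genes were, and none of the 14 passed. Their mean signal was 7.74 and 7.94 against 8.32 and 8.46, the direction of Cox6b2 and the reverse of Cox7a1. Among endothelial markers, Lyve1, a hyaluronan receptor of lymphatic vessels and some macrophages, had 6.32 and 4.23 on the metastatic arrays and 8.26 and 7.80 on the non-metastatic ones (difference -2.76, SE 0.64). Emcn, a surface glycoprotein of venous and capillary endothelium, had 6.50 and 5.66 against 8.77 and 8.45 (difference -2.53, SE 0.29). Both had lower values on both metastatic arrays, as Cox6b2 did, and neither passed (limma adjusted p = 0.498 and 0.185). Pdpn stood at 0.52 (SE 0.11) and Nrp2, a receptor for lymphatic growth factors, at 0.71 (SE 0.24), the direction of Cox7a1. Over the lists, 6 of 9 lymphatic and 6 of 11 blood endothelial markers were lower. The part of any of these cells in the isoform values was not tested.

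**Figure D3:**
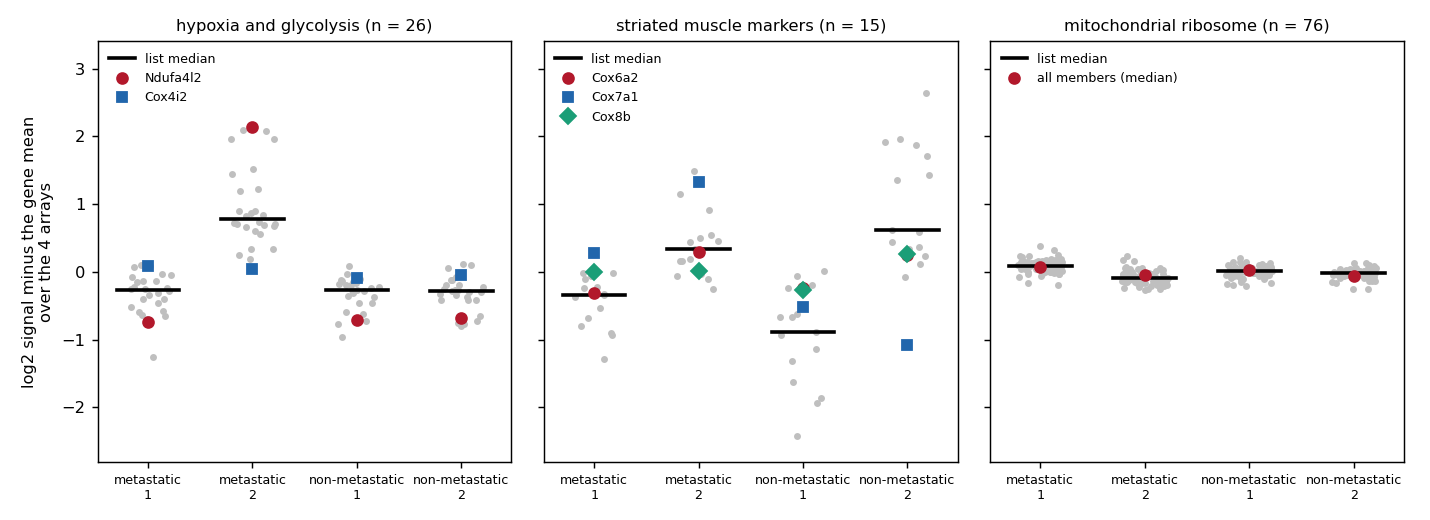
Log2 signal minus the gene's mean over the 4 arrays (y axis) on each array for hypoxia and glycolysis genes, striated muscle markers and mitochondrial ribosome genes (grey points, 1 per gene, black line at the median), with respiratory chain members or their median as coloured symbols. Ndufa4l2 peaks with the hypoxia and glycolysis genes on metastatic replicate 2, Cox6a2 is higher with the muscle markers on the replicate 2 arrays, and Cox7a1 is lowest on non-metastatic replicate 2.

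The regions before the start sites are shown for Cox7a1 and Cox6b2, whose differences had the smallest p, and for Cox6a1, a widely expressed subunit whose region holds the perfect palindrome of the site of nuclear respiratory factor 1 (NRF1), which drives many respiratory chain genes. Each stretch is the 250 bases before the start site from RefSeq (GRCm38.p6), 5′ to 3′ on the gene's strand. Capitals mark that palindrome and the letters ACGTG or GCGTG on either strand, the core of the site of hypoxia-inducible factor.
Cox7a1 (chr7:30183921-30184170, plus strand): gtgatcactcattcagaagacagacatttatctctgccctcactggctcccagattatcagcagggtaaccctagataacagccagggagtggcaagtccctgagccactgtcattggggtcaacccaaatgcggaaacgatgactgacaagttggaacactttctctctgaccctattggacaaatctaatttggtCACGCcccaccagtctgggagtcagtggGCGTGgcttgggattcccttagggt
Cox6b2 (chr7:4753095-4753344, minus strand): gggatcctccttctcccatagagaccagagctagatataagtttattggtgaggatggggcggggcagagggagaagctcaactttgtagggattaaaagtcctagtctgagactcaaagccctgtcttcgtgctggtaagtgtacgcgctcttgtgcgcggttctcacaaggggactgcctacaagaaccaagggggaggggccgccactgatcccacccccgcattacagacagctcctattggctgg
Cox6a1 (chr5:115348959-115349208, minus strand): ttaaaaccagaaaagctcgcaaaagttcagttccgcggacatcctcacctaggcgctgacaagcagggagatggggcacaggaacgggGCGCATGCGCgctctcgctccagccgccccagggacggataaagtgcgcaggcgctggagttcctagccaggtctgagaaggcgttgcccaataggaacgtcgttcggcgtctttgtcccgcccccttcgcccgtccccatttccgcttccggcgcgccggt
The region of Cox7a1 held the hypoxia core letters in 2 places, that of Cox6b2 held none of the letters searched, and that of Cox6a1 held the palindrome once. No region was available for Ndufa4l2, so it was not searched. Regions of 74 of the 90 genes, among them 4 of the 8 tissue-restricted or oxygen-linked isoforms, were matched in the table, as 79 windows. The palindrome was found in 4 of these windows, or 5.06%, before Cox6a1, Ndufaf4, Atp5g2 and Atp5k, against 0.782% of all 32851 windows of the same length. The letters CCGGAAGT, bound by GABP, another activator of these genes, were found in 3.8% of the members' windows and 2.88% of all windows, on either strand. The hypoxia core letters were found in 55.7% and 38.6%. All windows were not matched to the members' windows in base composition, and overlapping windows of the same gene, as for Ndufa7, were counted separately. The hits are matches of letters and show no binding. None of the 4 genes with the NRF1 palindrome passed. Their differences were -0.08 (SE 0.11) for Cox6a1, 0.22 (SE 0.11) for Atp5g2, -0.38 (SE 0.24) for Ndufaf4 and -0.11 (SE 0.12) for Atp5k.

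In complex I, 20 of 36 genes were higher and 16 lower in the metastatic group, with a median of 0.06. Ndufs1, which carries some of the iron-sulphur clusters of the electron path, had 10.45 and 10.39 against 10.39 and 10.32 (difference 0.07, SE 0.11). Ndufv1, the subunit that binds NADH, had 11.18 and 11.17 against 11.09 and 11.06 (difference 0.10, SE 0.11). Both metastatic arrays lay above both non-metastatic ones for these 2 core subunits, by margins smaller than the SE of the difference. The other 2 probe sets of Ndufv1, of similar signal, did not share this: their groups overlapped, with differences of -0.004 and 0.005. After Ndufa4l2, the smallest p values belonged to the accessory subunits Ndufa6 and Ndufb5. Ndufa6 had 10.94 and 10.90 against 10.78 and 10.70, a difference of 0.18 (SE 0.11), and Ndufb5 had 11.72 and 11.63 against 11.54 and 11.47, a difference of 0.17 (SE 0.11). The most negative value was that of Ndufa13, an accessory subunit also known as the cell death regulator GRIM-19. It had 13.00 and 12.75 against 13.18 and 12.94 (difference -0.19, SE 0.15), so its groups overlapped (chosen after its values were seen).

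The Ndufaf assembly factors, which build complex I and are absent from the finished enzyme, were lower for 6 of 8 genes, with a median of -0.03. No group separated from the other for any of the 8. Ndufaf4 had 10.01 and 9.29 against 10.06 and 9.99. Only metastatic replicate 2 was low, and the difference of -0.38 (SE 0.24) became -0.02 without that array and -0.74 without metastatic replicate 1. Its other probe set had the same order in the metastatic group, with 7.74 and 7.23. Its binding partner Ndufaf3 had 9.35 and 9.08 against 9.32 and 9.32, low on the same array. Ndufaf7, a methyltransferase that modifies a core subunit, had 9.15 and 8.88 against 9.03 and 8.88.

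All 4 genes of complex II, which also belongs to the citric acid cycle, had positive differences, with a median of 0.10. Sdha, the flavoprotein that oxidises succinate, had 11.40 and 11.54 against 11.37 and 11.35 (difference 0.11, SE 0.11). Sdhb, which holds the iron-sulphur clusters, had 12.43 and 12.26 against 12.40 and 12.24 (difference 0.03, SE 0.13), and its sign turned with the values as deposited (-0.01). The membrane anchors Sdhc and Sdhd stood at 0.09 (SE 0.12) and 0.14 (SE 0.12). None of the 4 exceeded its SE by much, and the groups of Sdhb and Sdhc overlapped.

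In complex III, 4 of 8 genes were higher and 4 lower, with a median of 0.03. Uqcrc2, a core protein, had 11.35 and 11.39 against 11.07 and 11.17. Its difference of 0.25 (SE 0.11, 95% interval -0.02 to 0.53) was the largest positive one among the members outside the restricted isoforms and did not pass (limma adjusted p = 0.853). It stayed between 0.20 and 0.30 with any single array left out, but its other probe set, of nearly the same mean signal, stood at 0.10. The Rieske iron-sulphur protein gene Uqcrfs1, whose product hands electrons to cytochrome c1, had 11.61 and 11.65 against 11.38 and 11.49 (difference 0.20, SE 0.11). The second core protein gene Uqcrc1 had 11.84 and 11.98 against 11.76 and 11.85 (difference 0.11, SE 0.12). The small subunit Uqcr10 differed the other way, with 11.64 and 11.70 against 11.82 and 11.76 (difference -0.12, SE 0.11).

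In complex IV, 10 of 17 genes were higher and 7 lower, with a median of 0.01 that was -0.01 with the values as deposited. Apart from the isoforms above, Cox5a, which contacts the catalytic core, had 13.11 and 12.99 against 13.01 and 12.86, and Cox5b, a zinc-binding subunit, had 13.50 and 13.34 against 13.46 and 13.35. Both were higher on the replicate 1 array of each group, with differences of 0.11 (SE 0.12) and 0.02 (SE 0.12). Cox6c stood at -0.03 (SE 0.11), and Cox8a, the partner of Cox8b and Cox8c, at 0.07 (SE 0.12). The probe set that stands for Cox7c was dim (5.36), so its difference of 0.17 (SE 0.13) says little on that gene. These genes other than Cox8a were chosen after their values were seen.

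In the ATP synthase, 11 of 17 genes were higher and 6 lower, with a median of 0.04. The catalytic head subunits Atp5a1 and Atp5b had 13.01 and 13.05 against 12.88 and 12.87, and 13.63 and 13.67 against 13.58 and 13.55. The metastatic arrays were higher in both cases, by 0.15 (SE 0.11) and 0.09 (SE 0.11). Atp5c1 of the rotating stalk stood at 0.20 (SE 0.12), and a dim probe set of the same gene at -0.18. Of the 3 genes that encode the same c subunit of the membrane rotor, Atp5g2 stood at 0.22 (SE 0.11), Atp5g3 at 0.05 (SE 0.11) and Atp5g1 at -0.15 (SE 0.13). Atp5g1 was lowest on metastatic replicate 2, with 12.35 and 12.10 against 12.42 and 12.33. Atp5md, a small subunit of the membrane part, was the most negative of the complex, with 11.31 and 11.31 against 11.46 and 11.50 (difference -0.16, SE 0.11).

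The arrays of each group differed from each other in a shared way. Relative to each gene's mean over the arrays, the median of the 90 members was 0.08 on metastatic replicate 1, -0.05 (-0.045) on metastatic replicate 2, 0.03 on non-metastatic replicate 1 and -0.06 on non-metastatic replicate 2. Over all genes these medians were -0.01, 0.01, 0.00 (-0.005) and 0.01 (0.005). The metastatic replicate 1 array had the higher value for 71 of 90 members, where 47% of all genes were higher on it than on replicate 2. Of the 90 members, 72 were higher on non-metastatic replicate 1 than on replicate 2, where 46.7% of all genes were, and 61 were higher on replicate 1 in both groups, where 25.3% of all genes were. Complex I showed this for 33 and 32 of its 36 genes, and complex III for 4 and 3 of its 8. Ndufs8, an iron-sulphur subunit at the joint of the complex I arms, had 12.52 and 12.10 in the metastatic group and 12.31 and 12.14 in the non-metastatic group, and Ndufb11, a membrane arm subunit, had 12.72 and 12.31, and 12.53 and 12.39 (both chosen after their values were seen). These shifts within groups were as large as or larger than the median difference between groups. The labels do not state whether preparations of the same number shared a litter or a day.

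**Figure D4:**
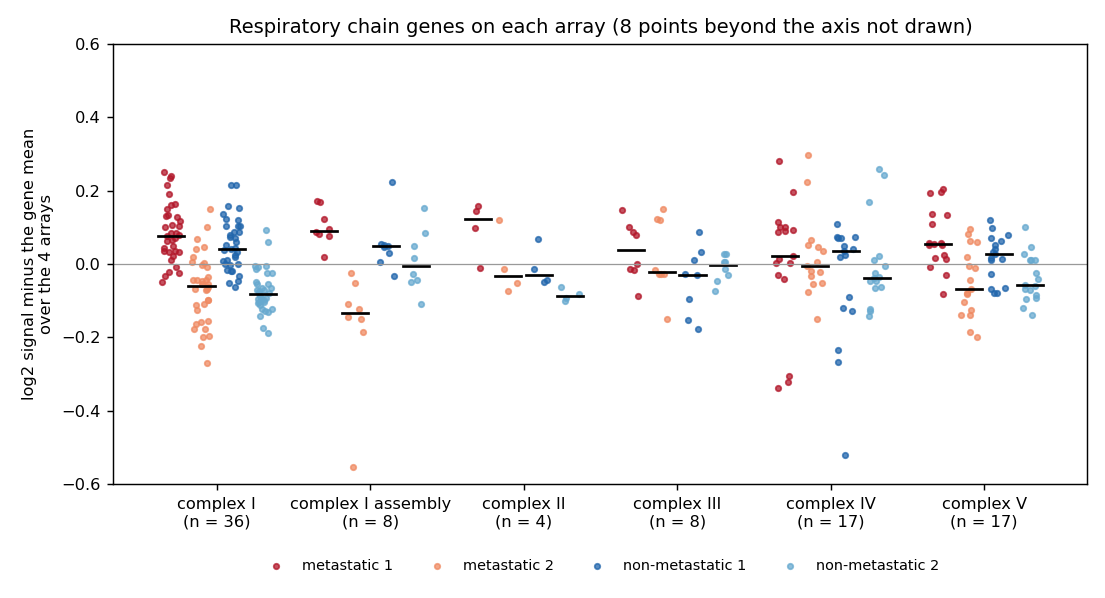
Log2 signal of each member minus its mean over the 4 arrays (y axis), by complex, with 1 point per gene, 1 colour per array and a black line at the median. Within each group the median of the replicate 1 array lies above that of replicate 2 in every set except complex III. There this order is reversed in the non-metastatic group. The 8 points beyond the axis belong to Ndufa4l2, Cox7a1 and Cox6b2.

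Replicates of a group lay at least 1 log2 unit apart for 2 members in the metastatic group, Cox7a1 and Ndufa4l2, and for 1 in the non-metastatic group, Cox6b2, against 1.76% and 0.737% of all genes. The 3 genes with large differences between groups were thus also the members whose replicates lay this far apart.

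Most other mitochondrial genes varied little between the groups as well, and 0 genes of any of these lists passed over all probe sets. Of 76 genes of the mitochondrial ribosome, which makes the subunits encoded in mitochondrial DNA, 41 were higher and 35 lower, with a median of 0.01. At an unadjusted p under 0.05 there were 2, both higher, Mrpl45 (difference 0.46, SE 0.11) and Mrps35 (difference 0.29, SE 0.12), where 2.63% of all genes were higher at that level. Metastatic replicate 1 was above replicate 2 for all but 6 of the 76, and non-metastatic replicate 1 was above replicate 2 for all but 26. Of 20 assembly factors of complex IV, 7 were higher and 13 lower, with a median of -0.08, and the RNA-binding protein gene Lrpprc, which stabilises mitochondrial messengers, stood at 0.39 (SE 0.14). The complex IV assembly genes Pet100 and Cmc2 stood at -0.30 (SE 0.15) and -0.28 (SE 0.14). Of 14 assembly factors of complexes II, III and V, 10 were higher, with a median of 0.05, and of 7 further complex I assembly factors 6 were higher, with a median of 0.11.

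Among 14 genes for cytochrome c, ubiquinone synthesis and other entry points of electrons, 9 were higher and 5 lower, with a median of 0.04. Cycs, the gene of cytochrome c itself, had 12.82 and 12.73 against 12.98 and 12.99 (difference -0.21, SE 0.11), and Etfa, which takes electrons from fatty acid oxidation, had 12.02 and 11.67 against 11.62 and 11.48 (difference 0.30, SE 0.16). Of 18 genes of the citric acid cycle and pyruvate entry 14 were higher, with a median of 0.08. The smallest p belonged to Suclg2 at 0.33 (SE 0.16), Idh3b at 0.21 (SE 0.13) and Fh1 at 0.17 (SE 0.11). The largest difference of that list was 0.52 (SE 0.345), for the pyruvate carboxylase gene Pcx (chosen after its values were seen). Pcx had 9.0 and 7.9 against 7.8 and 8.1, so its metastatic replicates lay far apart. Of 17 regulators of mitochondrial number and transcription 12 were higher, with a median of 0.08. Nrf1, which encodes NRF1, stood at 0.23 (SE 0.13), its partner in the control of energy metabolism Esrra at 0.18 (SE 0.11), and the mitochondrial DNA polymerase gene Polg at -0.20 (SE 0.11). Ppargc1a, the coactivator that drives mitochondrial growth in muscle and brown fat, was dim, at 4.81 to 4.98 on all arrays.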

How the data were processed

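Gene expression was measured on 4 Affymetrix arrays. Per the labels' protocols, biotin was incorporated into cRNA made from 3 ug of RNA, of which 20 ug was fragmented. The authors deposited a log2 signal per probe set (range 3.10 to 14.87, array medians 5.88 to 5.99); their range shows the log2 scale, and the summarising software and any earlier normalization were not given in the sources used here. Array medians differed by 0.116, above a limit of 0.1, so the arrays were quantile normalized. After leaving out 64 control probe sets, 45037 were fitted with limma (lmFit and eBayes, 2 residual and 3.71 prior degrees of freedom) and adjusted by Benjamini-Hochberg, called under 0.05. Groups came from the titles, which call the preparations biological replicates. Symbols came from the platform annotation (34945 probe sets with 1 symbol, 932 with several, 9160 with none). Of the 90 probe sets that stand for the members, 17 are marked by the array's naming as able to bind several transcripts. Of 51 members with at least 2 probe sets, 29 had the same sign in all of them.

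Named genes were restricted isoforms and their partners, catalytic core subunits, the 3 members of each complex with the smallest p, the members with the largest replicate differences, and at most 3 genes per list; exceptions are marked, and per-sample marker values are given besides. The members and all 17 lists were chosen with earlier results of these data known. The marker lists other than muscle gave medians of -0.13 (lymphatic endothelial), -0.07 (blood endothelial), -0.03 (fibroblastic reticular), -0.24 (macrophage), -0.02 (lymphocyte), -0.06 (epithelial) and 0.01 (brown fat). Scripts were tested on simulated data. Alternatives were the deposited values, median centring, brighter probe sets, averaging over each gene's probe sets, unmarked probe sets, trend and robust moderation, a replicate block, membership by current symbol or without assembly factors, and each array left out. R 4.3.3, limma 3.58.1, Python 3.11.15 and matplotlib 3.10.9 were used.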

Additional observations from a re-analysis of the deposited data

How the results depend on the processing

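None of the named genes' differences reversed as a call, since none was called in the main fit, which used all 4 arrays without a block. Over 404 values of 37 named genes under the alternatives, 376 kept their sign and their side of the threshold, 26 changed sign at sizes that were not called, and 2 passed: Cox6b2 with the replicate block (-1.36, limma adjusted p = 0.0193) and Ndufa4l2 without metastatic replicate 1. Over all probe sets the count called was 0 in the main fit and 5 with trend and robust moderation. No label says that equal replicate numbers are paired, and deviations of same-numbered arrays correlated at 0.248. A fit with the replicate block gave 145 called probe sets and 1 called member, with 3 members at an unadjusted p under 0.05. With each array left out in turn, the probe sets called ranged from 0 to 67, the members called from 0 to 1, and members at an unadjusted p under 0.05 from 2 to 4, the highest each time without metastatic replicate 1. The Cox7a1 difference ranged from 1.08 to 2.12. The median over members moved by less than the spread between replicates (0.076) in every alternative, from -0.04 (-0.035) to 0.09. That spread was computed from the same arrays, so leaving out 1 of them could hardly move the median further. The sign of the median was not stable. The count of 13 of 26 hypoxia and glycolysis genes without metastatic replicate 2 was an alternative chosen after seeing the data. Membership by current symbol gave the same 90 genes. Dim probe sets, such as those of Cox7b2, Ndufb4 and Cox7c, limit what can be said of those genes.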

Other observations

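Another 10 probe sets carry the symbol of a chain gene together with that of a further gene and were left out above. Their differences between the groups ran from -0.13 to 0.13. The probe set shared by Ndufs6 and Ndufs6b had a difference of 0.01 (SE 0.13), the brighter one shared by Ndufa11 and Ndufa11b -0.11 (SE 0.12), a dimmer one of the same genes 0.13 (SE 0.12), and the one shared by Ndufs5 and its pseudogene -0.07 (SE 0.12). Those shared by Ndufb4 and its copies stood at -0.12 (SE 0.13 and 0.12) with signals near 11.86 and 11.75, whereas the probe set of Ndufb4 alone had a signal of 4.09, so the member value of Ndufb4 is that of a dim probe set.

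General fat cell genes of the brown fat list did not separate the groups. Adipoq, the adipocyte hormone adiponectin, had 9.04 and 4.52 on the metastatic arrays and 8.40 and 5.66 on the non-metastatic arrays, high on the replicate 1 array of each group, where the respiratory chain members were also slightly higher. Fabp4, a fatty acid carrier of fat cells and capillaries, did not have that order, with 12.22 and 10.95 against 11.27 and 11.70 (both chosen after their values were seen). Their part in the members' values was not tested.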
